A study of Mus musculus with 6 samples.

Results

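Ribosomal protein pseudogenes were examined in leukaemic blasts of mice with and without Tet2. The members are the genes that the GENCODE M21 annotation of GRCm38 classes as pseudogenes and names after a ribosomal protein gene, such as Rps6-ps4 for a copy of Rps6, and that held at least 10 estimated reads over the 6 libraries. They were therefore chosen by their measured read total, which is described here without a test. Of 294 such pseudogenes in the annotation, 283 are listed in the deposited tables and 141 passed this minimum, among 53458 genes in all. Of the 283, 47 had no read. The other 11 are identical in sequence to a transcript that is listed and have no value of their own. Just inside the minimum were Rps10-ps4 with 10.0 reads and Rpl19-ps9 with 10.2 reads, and just outside were Rps19-ps7 with 9.9 reads and Rpl13-ps5 with 9.0 reads. The members are named after 48 parent genes, with 79 copies of large subunit genes and 62 of small subunit genes, and 135 are annotated as processed pseudogenes and 6 as transcribed processed pseudogenes.

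RNA came from AML blasts of 3 Cebpa-/p30 Tet2+/+ mice (19, 23 and 24) and 3 Cebpa-/p30 Tet2-/- mice (5, 7 and 8) of the strain labelled C57BL/6 (C57BL/6J donors per the study's methods), with 1 library for each mouse. Both genotypes lack normal C/EBPα: an allele encoding only the short p30 isoform stands opposite a floxed Cebpa allele, which was deleted by Mx1-Cre, an interferon-inducible recombinase, after injection of poly(I:C). In the Tet2-/- group both Tet2 alleles were floxed and deleted by the same Cre. Donor marrow had been transplanted into lethally irradiated female C57BL/6J.SJL recipients, and live donor cells without the lymphoid and erythroid markers CD3, B220 and Ter119 were sorted from the marrow of moribund mice. The ages at collection, and which mice shared a donor, are not given in the sources used here. The libraries held between 13036643 and 32855343 estimated reads. The targeted gene was not lower over its whole length, which includes exons outside the deletion: Tet2 stood at 73.6, 79.4 and 98.3 TMM-normalized CPM, reads scaled to the depth of each library, in Tet2+/+ mice and at 111, 79.4 and 96.7 CPM in Tet2-/- mice. The summed level of a list of 10 myeloid blast genes was between 8285 and 10429 CPM in Tet2+/+ and between 7958 and 11743 CPM in Tet2-/- mice. A basophil and mast cell list did not overlap, at 524 to 608 CPM in Tet2+/+ and 218 to 469 CPM in Tet2-/- mice. After adjustment, DESeq2 called 2 of its 6 genes tested lower, beside 1.48% of all genes, and edgeR called 0. Of these 6 genes, 4 had a log2 fold change below 0 and 2 above 0. DESeq2 also called 2 of 8 plasma cell genes and 1 of 10 T and NK cell genes lower. It called 1 of 8 monocyte and macrophage genes higher, beside 0.269% of all genes. The part of these cells in the results was not tested.

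Processed pseudogenes arise when a messenger RNA is copied back into DNA and inserted elsewhere in the genome, without introns and usually without a promoter of their own. Ribosomal protein genes are among the richest sources of such copies in mammals, since their mRNAs are short, abundant and expressed in every cell, the germ line included. A short read from such an mRNA can match the parent gene and its copies equally well. Salmon, the program used for these tables, then divides the read among all transcripts it fits by likelihood, so that a value of a pseudogene is an estimate of its part in the reads that the family shares. The kit used does not mark the strand.

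How much sequence a pseudogene shares with its parent was counted in windows of 75 bases, the number of sequencing cycles of the kit. In the Rps6 family, 100% of the windows of Rps6-ps4 and 40.7% of those of Rps6-ps3 also occur in the parent. Rps6 encodes a small subunit protein that is phosphorylated downstream of mTOR. Over the 750 coding bases of Rps6, Rps6-ps4 (chr2:75191073-75191822, minus strand, within an intron of 2600014E21Rik on the opposite strand) had 0 differences and Rps6-ps3 (chr9:53689534-53690283, minus strand, within an intron of Rab39) had 11. The lines below give coding positions 61 to 130 of Rps6, counted from the A of the start codon, from the GENCODE M21 transcripts of GRCm38, with the positions at which Rps6-ps3 differs in capitals. These are C64T, A83G, G112A and C119T, with the base of the parent first.
Rps6: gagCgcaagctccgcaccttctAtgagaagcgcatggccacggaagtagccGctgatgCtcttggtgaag
Rps6-ps4: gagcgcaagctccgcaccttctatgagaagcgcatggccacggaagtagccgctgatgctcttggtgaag
Rps6-ps3: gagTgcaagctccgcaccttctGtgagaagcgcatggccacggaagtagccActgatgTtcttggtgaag

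Rps6-ps4 was assigned 12170, 14847 and 8122 reads in Tet2+/+ mice and 23284, 4875 and 15686 reads in Tet2-/- mice, while Rps6 itself was assigned 9224, 10197 and 6167 reads and 23465, 4766 and 12680 reads. The pseudogene exceeded its parent in 5 of 6 mice in these estimates. Rps6-ps3, which was chosen for this comparison after its values were seen, was assigned between 6.16 and 43.7 reads in each mouse. None of the windows of Rps6-ps4 is its own, and 42.8% of the windows of Rps6-ps3 occur in no other gene.

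The same split ran through the members. In 11 of them every window also occurs in the parent, and these 11 held between 14015 and 78985 reads each over the 6 mice and 70.8% of all member reads. They are copies of 7 large and 4 small subunit genes, and all 11 are identical to the parent over their whole length. The 33 members with at least 50% but not all of their windows in the parent had a median of 172 reads and held 25.2% of member reads. The 84 members with some but under 50% of their windows in the parent had a median of 24.6 reads, and the 13 members with no window in the parent had a median of 15.9 reads. Across the 141 members, Spearman's rho between the read total and the percentage of windows in the parent was 0.62, given as a description, since members of a family share reads and both values reflect the same sequences.

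**Figure D1:**
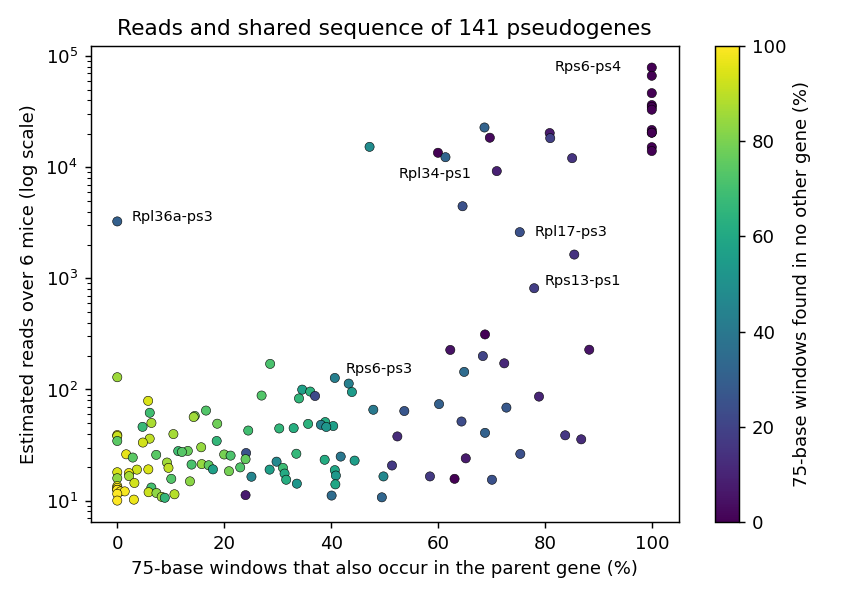
Estimated reads over the 6 mice (vertical axis, log scale) against the percentage of 75-base windows that also occur in the parent gene (horizontal axis) for each of the 141 pseudogenes, coloured by the percentage of windows found in no other gene. The 11 pseudogenes at 100% hold between 14015 and 78985 reads, and most others hold fewer than 100 reads.

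Few members therefore carried nearly all of the signal. The 20 with most reads held 96.7% of member reads and the 24 with over 1000 reads held 98.9%, whereas 106 of 141 had fewer than 100 reads and the median was 35.6 reads. In 26 members at least 50% of the 31-base words, the usual word length at which Salmon matches reads, occur in no other transcript. These 26 had a median of 15.8 reads and at most 129 reads. The single one of them with a mean of at least 1 CPM was Rps7-ps2, at 1.61, 1.82 and 0.633 CPM in Tet2+/+ and 0.221, 2.31 and 0.922 CPM in Tet2-/- mice. Its best coding match was Odc1, which encodes ornithine decarboxylase of polyamine synthesis, with 94.8% identity over 67.9% of its length, and it had no match to Rps7.

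The names were right for nearly all members, as 137 of 141 had their best coding match in the gene they are named after. Rpl36a-ps3 differed from Rpl36a at 40 of 321 bases and matched Rpl36al, a paralogue of Rpl36a, with 99.7% identity. A match over 20.6% of Rpl19-ps3 was to Ocstamp. For the 138 members that aligned to the parent, the median identity was 98.5% and the lowest 83.6%. A reading frame of at least 95% of the length of the parent's protein was open in 55 members, among them 23 of the 34 above this level, and these data do not measure translation. Of the 141, 85 overlap no other gene, 47 lie within an intron and 9 overlap an exon. Members within introns and members apart from other genes had similar medians, 35.6 and 34.4 reads.

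Some abundant members are nearly but not wholly identical to the parent. Rpl23a-ps3, Rpl9-ps4 and Rps27a-ps2 each differ from the aligned coding sequence of the parent at 1 base, A116T, C237T and A375G in coding positions of the parent. Rpl23a and Rpl9 encode large subunit proteins, and Rps27a encodes a small subunit protein made as a fusion with ubiquitin. The lines show 60 coding bases of each pair with the differing base in capitals. Rpl23a-ps3 lies at chr14:34170655-34171122 (plus strand), Rpl9-ps4 at chr13:72454762-72455340 (minus strand) and Rps27a-ps2 at chr9:83409660-83410126 (plus strand, within an intron of Lca5 on the opposite strand).
Rpl23a: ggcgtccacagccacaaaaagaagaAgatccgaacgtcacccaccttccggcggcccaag
Rpl23a-ps3: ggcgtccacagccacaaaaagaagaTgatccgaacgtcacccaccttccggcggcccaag
Rpl9: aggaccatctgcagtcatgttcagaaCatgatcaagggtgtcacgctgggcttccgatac
Rpl9-ps4: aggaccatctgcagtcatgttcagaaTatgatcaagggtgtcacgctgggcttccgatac
Rps27a: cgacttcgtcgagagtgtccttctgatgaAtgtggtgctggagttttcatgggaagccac
Rps27a-ps2: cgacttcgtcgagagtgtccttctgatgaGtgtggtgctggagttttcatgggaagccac

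Rpl23a-ps3 was assigned reads equal to 30.1%, 39.2% and 44.0% of those of Rpl23a in Tet2+/+ mice and to 22.8%, 25.9% and 27.2% in Tet2-/- mice. Rpl9-ps4 was at 19.9%, 17.6% and 21.0% of Rpl9 in Tet2+/+ and at 16.0%, 14.5% and 13.5% in Tet2-/- mice. Rps27a-ps2 was at 52.3%, 54.8% and 57.2% of Rps27a in Tet2+/+ and at 57.6%, 49.0% and 52.5% in Tet2-/- mice, which overlap, unlike those of the other two. By contrast Rps23-ps1, which is identical to its parent over its length, was assigned 4 to 5 times the reads of Rps23 in every mouse, between 423% and 467% of them. Rps23 encodes a small subunit protein close to the decoding centre. Rpl10a-ps1, also identical to its parent, was assigned 15176 reads over the 6 mice against 53916 for Rpl10a. Identity to the parent thus went with values both above and below those of the parent.

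Summed over all families, the members took 15.7%, 16.0% and 15.6% of the reads of members and parents together in Tet2+/+ mice and 15.3%, 15.6% and 15.9% in Tet2-/- mice. The means were 15.8% ± 0.214 (SD, n = 3) and 15.6% ± 0.291 (SD, n = 3), and a two-sided exact permutation test over the 6 mice gave p = 0.4. Without the Rpl34 family, left out after seeing the data, the shares were 15.9%, 16.2% and 15.8% against 14.9%, 15.1% and 15.5%, which did not overlap (exact permutation p = 0.1). In TPM the difference had the opposite sign, 0.465 points higher in Tet2-/- mice (exact permutation p = 0.3). With 3 mice in each genotype the smallest p that this test can give is 0.1. In TPM, a level per transcript length, the members summed to 16266, 20408 and 16226 in Tet2+/+ and to 20393, 9560 and 21636 in Tet2-/- mice (exact permutation p = 0.9). The parents summed to 49474, 58785 and 49220 TPM and to 60560, 27938 and 61526 TPM (exact permutation p = 1). Mouse 7 was the lowest for both sums. Rpl38-ps2, a copy of a 70-residue large subunit protein gene that spans 213 bases, made up between 29.5% and 32.6% of the members' TPM, as the effective length of so short a transcript is small, and the TPM of short members is inflated accordingly.

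Mouse 7 was also the lowest for the parents' whole pathway. A list of cytosolic ribosomal protein genes summed to between 34752 and 42700 CPM in Tet2+/+ mice and to 52325, 23830 and 49392 CPM in mice 5, 7 and 8. Of its 83 genes tested with edgeR, 0 passed an adjusted p of 0.05, and at an unadjusted p under 0.05 there was 1 lower (Rpl34, 1.20%) and 0 higher, beside 5.12% and 3.0% of all genes tested. None of the 21 translation factors whose mRNAs carry a 5-prime TOP motif, or of the 36 ribosome biogenesis genes, passed even the unadjusted threshold, and DESeq2 called 0 genes of the 3 lists after adjustment. A list of 10 mature neutrophil genes summed to 122090 CPM in mouse 7 and to between 11651 and 66103 CPM in the other mice. All 10 were detected, and their sums overlapped between the genotypes. All 10 had a log2 fold change above 0, with a median of 0.92, and 0 passed adjustment in edgeR or DESeq2. Of 8 monocyte and macrophage genes, 7 were above 0, with a median of 0.68. A list of erythroid genes summed to 148 CPM in mouse 19 and to between 6.42 and 15.5 CPM in the other mice. The part of neutrophils in the low ribosomal protein values of mouse 7 was not tested. In bulk RNA, fewer cells of a type and less RNA in each cell cannot be told apart.

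The genotypes were compared gene by gene in edgeR (quasi-likelihood F test over 22170 genes, Benjamini-Hochberg adjustment), and 137 of the 141 members were in the fit. No member passed an adjusted p of 0.05 in either direction, where 0.0451% of all genes were called lower and 0.00% higher. At an unadjusted p under 0.05, 2 members (1.46%) were lower and 6 (4.38%) higher in Tet2-/- blasts, beside 5.12% and 3.0% of all genes. Of the 6, Rpl34-ps2 and Rpl30-ps3 reached the minimum of 10 reads only through the Tet2-/- mice, so that their direction was partly set by it. DESeq2 on the same counts called 0 members lower and 1 higher after adjustment, beside 1.48% and 0.269% of all genes. The median log2 fold change of the members was 0.12, that of their parents 0.10 and that of all genes tested 0.00. Without mouse 7 the median of the members was 0.38 and that of all genes tested -0.01. The median difference of the log2 fold change between a member and its parent was then 0.00.

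The 12 members with most reads gave small differences, each with a standard error wider than its difference except for Rpl27-ps3. Rps6-ps4 had a log2 fold change of -0.14 ± 0.38 (SE), Rps23-ps1 of -0.03 ± 0.33 and Rpl15-ps3 of 0.06 ± 0.33, and the 12 lay between -0.15 and 0.45. The upper end was Rpl27-ps3, with 134, 163 and 150 CPM in Tet2+/+ and 256, 133 and 221 CPM in Tet2-/- mice (adjusted p = 0.704, edgeR). The 12 include copies of Rps16, Rpl31, Rpl28, Rpl14, Rpl36a, Rps13, Rps27a and Rpl30, and their mice overlapped between genotypes in every case.

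Rpl34-ps1 stood apart. It was assigned 165, 318 and 109 reads in Tet2+/+ mice and 7290, 1757 and 3872 reads in Tet2-/- mice. That is 9.87, 17.0 and 7.67 CPM against 231, 113 and 210 CPM, with no overlap, and means of 11.5 ± 4.89 and 185 ± 62.8 CPM (SD, n = 3). The log2 fold change was 4.0 ± 0.42 (SE), and the adjusted p of 0.0501 from edgeR's quasi-likelihood test missed the threshold narrowly. The adjusted p was 5.39e-19 in DESeq2 on the same counts and 0.0421 in edgeR with RLE factors. In edgeR it was also 0.0497 with filterByExpr and 0.00241 with no filter on low counts, against 0.0548 with library size only and 0.0578 on length-scaled counts, and between 0.0875 and 0.224 when any 1 mouse was left out, with log2 fold changes from 3.78 to 4.37. The call thus depends on the tool, the scaling and the filter.

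Rpl34-ps1 (chr6:71124610-71124963, plus strand) overlaps no other gene and has a frame open for 117 residues, the length of RPL34, a large subunit protein. Over the 354 coding bases of Rpl34 it differs by T132C and C318G. Both bases are shared by the pseudogene Gm10154 (chr4:83505185-83505538, minus strand), which has 4 differences in all, and by the other member of the family, Rpl34-ps2 (chr13:116153781-116154134, plus strand), which has 10. For this reason none of the 75-base windows of Rpl34-ps1 is its own, although only 60% occur in Rpl34. The lines give coding positions 103 to 162 and then 288 to 347, with the bases at 132 and 318 in capitals.
Rpl34: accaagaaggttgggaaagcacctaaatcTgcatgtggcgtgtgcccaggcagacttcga
Rpl34-ps1: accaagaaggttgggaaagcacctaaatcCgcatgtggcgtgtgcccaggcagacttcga
Gm10154: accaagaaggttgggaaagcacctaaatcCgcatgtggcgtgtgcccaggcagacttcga
Rpl34-ps2: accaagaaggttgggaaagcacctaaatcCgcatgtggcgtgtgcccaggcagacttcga
Rpl34: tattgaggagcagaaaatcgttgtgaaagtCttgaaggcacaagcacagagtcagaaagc
Rpl34-ps1: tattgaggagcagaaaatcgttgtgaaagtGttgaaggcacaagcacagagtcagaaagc
Gm10154: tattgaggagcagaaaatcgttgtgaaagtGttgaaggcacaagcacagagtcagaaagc
Rpl34-ps2: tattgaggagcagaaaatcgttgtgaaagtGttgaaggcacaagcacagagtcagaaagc

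The difference of the parent had the opposite sign. Rpl34 had 374, 346 and 322 CPM in Tet2+/+ mice and 242, 129 and 231 CPM in Tet2-/- mice, without overlap. Its log2 fold change was -0.79 ± 0.26 (SE), with an unadjusted p of 0.0196 and an adjusted p of 0.549 (edgeR). The family as a whole did not follow either. Rpl34 with its members summed to 384, 363 and 329 CPM in Tet2+/+ and to 473, 242 and 441 CPM in Tet2-/- mice, and these sums overlapped (exact permutation p = 0.8). Of the family's reads, 2.56%, 4.69% and 2.35% were assigned to the members in Tet2+/+ and 48.9%, 46.8% and 47.6% in Tet2-/- mice. The shares were even within each genotype, at 3.20% ± 1.29 and 47.8% ± 1.05 (SD, n = 3, exact permutation p = 0.1, the smallest possible). Gm10154, with the same bases at both positions, was assigned at most 7.52 reads in any mouse, and Rpl34-ps2 0, 0 and 1.21 reads in Tet2+/+ and 18.1, 4.32 and 4.31 reads in Tet2-/- mice. Rpl34 lies on chromosome 3 at chr3:130726831-130730398 (minus strand), 2.73 Mb from the targeted Tet2 at chr3:133463679-133545139, and none of its pseudogenes described here is on that chromosome. Whether the sequence of Rpl34 differed between the genotypes was not tested, as the tables hold no reads.

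**Figure D2:**
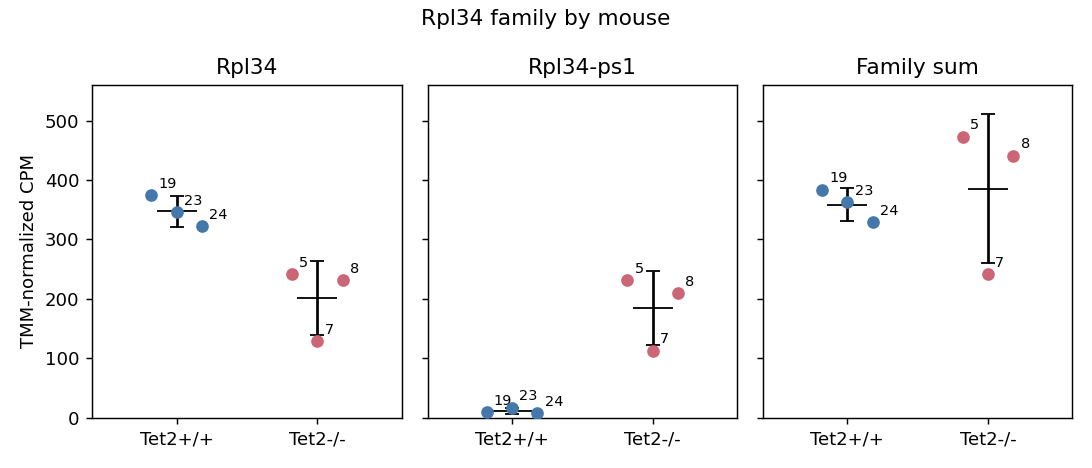
TMM-normalized CPM (vertical axis) of Rpl34, of Rpl34-ps1 and of the family sum in each mouse, by genotype. Points are mice with their numbers, horizontal lines are means and bars are SD over 3 mice. Rpl34-ps1 lies between 7.67 and 17.0 CPM in Tet2+/+ and between 113 and 231 CPM in Tet2-/- mice, Rpl34 is lower in every Tet2-/- mouse, and the family sums overlap.

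No other family with a large share in its members behaved in this way. In 20 of 48 families the members took a mean of at least 10% of the reads, from 14.6% for Rpl9 to 83.6% for Rpl27, and in 9 families they took over 50%. In the other 28 families the median share was 0.160%. Apart from Rpl34, the share of the 19 large families moved between genotypes by -7.08 to 2.63 percentage points, with SDs within a genotype from 0.292 to 6.41 points. Shares did not overlap between genotypes in 5 of the 20, 2 (10%) higher and 3 (15%) lower, beside 9.52% and 4.76% of 21 families of other coding genes and their named pseudogenes at the same minimum share. The Rpl34 family met that minimum only through the Tet2-/- mice, so that its place among the 20 was set by its own difference. The 5 were those of Rpl34 and Rpl27 (82.3% ± 1.49 and 84.9% ± 0.748), which were higher in Tet2-/- blasts, and Rpl23a (27.3% ± 3.77 and 20.2% ± 1.44), Rpl9 (16.4% ± 1.25 and 12.9% ± 0.858) and Rps6 (57.7% ± 1.40 and 51.9% ± 2.97), which were lower (SD, n = 3). The read total of no family separated the genotypes, and the smallest exact permutation p over the 48 families was 0.4.

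**Figure D3:**
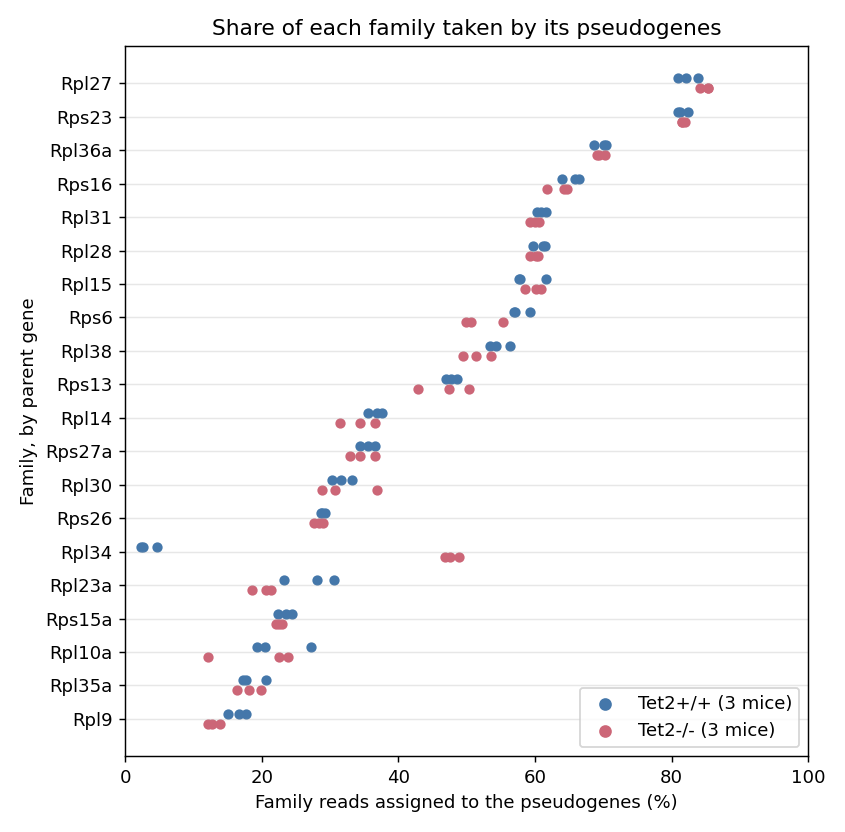
Percentage of the reads of a family, parent and members together, that were assigned to its pseudogenes (horizontal axis) for the 20 families with a mean share of at least 10%. Points are mice, 3 for each genotype. The Rpl34 family is at 2.35% to 4.69% in Tet2+/+ and at 46.8% to 48.9% in Tet2-/- mice, while every other family moved by at most 7.08 percentage points between the means.

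Counted member by member, the ratio of a pseudogene to the gene it is named after did not overlap between genotypes in 6 of 34 pairs at or above 1 CPM on average. It was higher for Rpl34-ps1, Rpl36a-ps3 and Rpl27-ps3 and lower for Rpl23a-ps3, Rps6-ps4 and Rpl9-ps4, which is 8.82% in each direction. Over the 32 pairs in which that gene is also the best coding match, which leaves out Rpl36a-ps3 and Rps7-ps2 and was chosen after seeing the data, it was higher in 2 (6.25%) and lower in 3 (9.38%). Among 37 other pseudogenes of this level that are named after a coding gene outside the cytosolic ribosome, 8.11% were higher and 8.11% lower, so that the counts were near that background. The size was not alike, at 4.86 on the log2 scale for Rpl34-ps1 and between -0.56 and 0.28 for the other 5. In CPM itself, 1 member was lower without overlap (Rpl17-ps8, 2.94%) and 2 higher (Rpl34-ps1 and Rpl17-ps3, 5.88%), beside 7.71% and 8.24% of all genes at that level. Without mouse 7, the lowest for ribosomal protein genes, 20 of the 34 members (58.8%) were higher without overlap, beside 20% of all genes. Rpl17-ps8 reached that level only through the Tet2+/+ mice, with means of 2.75 and 0.436 CPM, and its separation is a description. The median difference of the log2 fold change between a member and its parent was -0.01.

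Copies of Rpl17 and Rps13 gave other large differences. Rpl17 encodes a large subunit protein at the exit tunnel of the ribosome, and 8 of its copies are members. Rpl17-ps3 was assigned 50.3, 138 and 301 reads in Tet2+/+ and 1292, 387 and 440 reads in Tet2-/- mice (log2 fold change 1.51 ± 0.65 SE, adjusted p = 0.623, edgeR), and the fold change was 1.06 without mouse 19 and 2.52 without mouse 24. Rpl17-ps8 had 62.8, 64.3 and 15.2 reads against 18.8, 11.1 and 0 reads (-2.63 ± 1.03, adjusted p = 0.604, edgeR). Rpl17-ps5 and Rpl17-ps10 were listed at 0 in 2 and 3 of the 6 mice. Together the 8 copies took between 1.08% and 4.54% of the family's reads in Tet2+/+ and between 4.14% and 6.85% in Tet2-/- mice, and the family total overlapped (exact permutation p = 1).

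Rps13-ps1 reached a mean of 1 CPM only through the Tet2-/- mice, with means of 0.214 and 8.71 CPM, and its log2 fold change of 5.23 ± 2.16 (SE) is given as a description that rested on mouse 5. It was assigned 0, 12.2 and 0 reads in Tet2+/+ and 771, 0 and 32.5 reads in Tet2-/- mice, and without mouse 5 the log2 fold change was 1.92 (adjusted p = 0.832, edgeR). Rps13 encodes a small subunit protein. Rps13-ps1 (chr8:87047689-87048226, plus strand) differs from its 456 coding bases at 2, T411C and A429G, and Rps13-ps2 (chr7:88530446-88530898, minus strand) differs from them at 0 over 453 bases. The lines give coding positions 391 to 450 with the differing bases in capitals.
Rps13: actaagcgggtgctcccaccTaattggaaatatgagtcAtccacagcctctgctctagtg
Rps13-ps2: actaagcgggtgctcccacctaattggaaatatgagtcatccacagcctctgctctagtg
Rps13-ps1: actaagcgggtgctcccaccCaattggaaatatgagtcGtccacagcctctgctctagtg

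Rps13-ps2, the identical copy, was assigned 2983, 3501 and 2367 reads in Tet2+/+ and 6357, 1605 and 3667 reads in Tet2-/- mice, which is 74.5% of those of Rps13 in mouse 7 and between 88.0% and 93.4% in the other mice. Rpl19-ps11, a copy of another large subunit gene, was likewise uneven within a genotype, with 320, 587 and 0 reads in Tet2+/+ and 159, 168 and 404 reads in Tet2-/- mice. It differs from Rpl19 at 1 base. Rpl39-ps, 151 bases long, was assigned 34.6, 40.6 and 20.4 reads and 33.7, 2.27 and 38.5 reads, lowest in mouse 7 (-0.77 ± 0.80 SE, adjusted p = 0.848, edgeR), with -0.26 without mouse 7 and -1.59 without mouse 8.

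**Figure D4:**
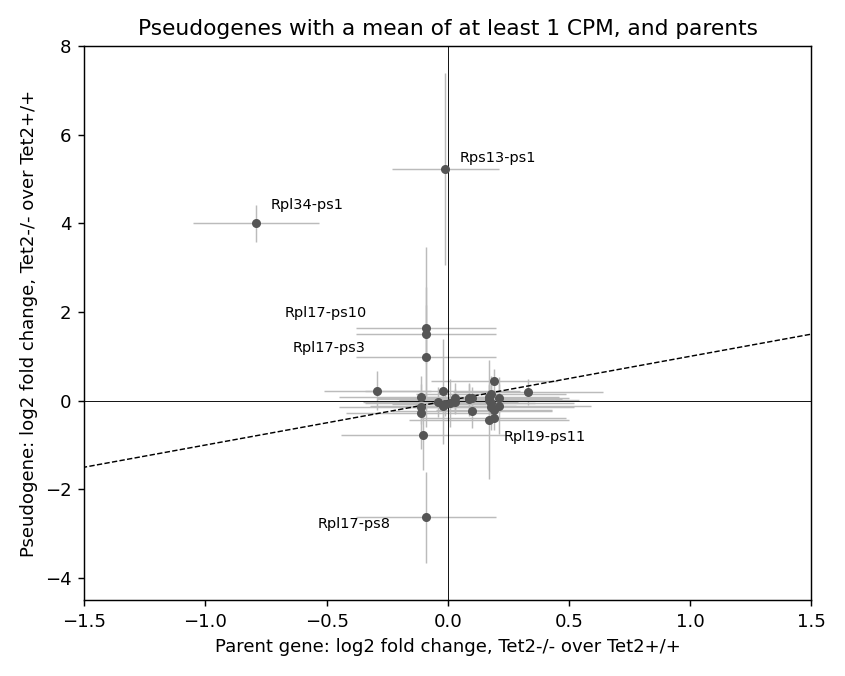
Log2 fold change between genotypes of each pseudogene with a mean of at least 1 CPM (vertical axis) against that of its parent gene (horizontal axis, on another scale). Bars are standard errors from edgeR and the dashed line marks equal changes. Most pairs lie near 0 on both axes, and Rpl34-ps1 is at 4.0 with its parent at -0.79.

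Many members did not mean many pseudogene reads. Rps12, whose protein lies in the small subunit, has 10 members, and they took 8.69% ± 2.82 of the family's reads in Tet2+/+ and 10.4% ± 1.37 in Tet2-/- mice (SD, n = 3). The 9 copies of Rpsa, the laminin receptor and small subunit protein, took 2.49% ± 0.356 and 1.99% ± 0.255, nearly all of it in Rpsa-ps10 with 4463 reads. Of the 9 copies of Rpl31, Rpl31-ps8 alone had 36302 reads and the next, Rpl31-ps11, 83.1. Families of 8 copies of Rpl19, 7 of Rps2, 6 of Rps19, 5 of Rps15a and 4 of Rpl30 showed the same pattern of at most 1 member with over 1000 reads. In Rps2 and Rps19 no member exceeded 227 reads.

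Outside the abundant members, 103 of the 137 tested had a mean under 1 CPM. At an unadjusted p under 0.05 (edgeR), 1 of these (0.971%) was lower and 4 (3.88%) higher, beside 5.12% and 3.0% of all genes tested. Lower was Rps27a-ps1 (11, 9.02 and 7.01 reads in Tet2+/+ and 4.01, 3.01 and 4.01 reads in Tet2-/- mice) and higher were Rpl34-ps2, Rpl30-ps3, Rpl31-ps11 and Rps15a-ps6, all named after their values were seen. As the minimum of 10 reads partly set the direction of Rpl34-ps2 and Rpl30-ps3, nothing is read from these counts. Rps27a-ps1 is among the more distinct members, with 91.8% of its windows in no other gene. None of these members had an adjusted p under 0.491 (edgeR).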

How the data were processed

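RNA libraries of 6 mice (TruSeq RNA v2, NextSeq 500) were quantified by the authors with Salmon 0.12.0 against Ensembl 94 transcripts of GRCm38. Both an estimated count and a TPM for each transcript are as deposited by the authors from Salmon, the count unscaled and the TPM divided by effective length and set to a fixed total. Estimated counts were added up here over the transcripts of each GENCODE M21 gene, then rounded. Transcripts without a gene, between 0.0307% and 0.0416% of reads, were left out.

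Genes whose normalized counts summed to at least 10 were tested with edgeR 4.0.16 in R 4.3.3 (TMM, quasi-likelihood test, no covariates, checked on simulated data). CPM are TMM-normalized. The study itself used DESeq2 on length-scaled counts, run here with DESeq2 1.42.0 as an alternative. Ratios to a parent use a pseudocount of 0.5 reads. Windows and words were compared on both strands with all transcripts listed, and parents were checked by BLAST+ 2.17.0. Sums were compared by two-sided exact permutation over mice (scipy 1.17.1).

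The members and lists were chosen with earlier results of these data known. Named are the 12 members with most reads, any past the adjusted p of 0.05, the 5 lowest and 5 highest fold changes and differences from the parent among members with a mean of at least 1 CPM, those of this level with at least 50% of 31-base words unique, and parents of these and of families of 4 or more. Alternatives were other tools, scalings, filters, units and leaving out each mouse. The study used several donors, each with several recipients, but which donor each mouse had is not given, so p-values cover the spread between mice only. Counting error was not separated from read assignment.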

Additional observations from a re-analysis of the deposited data

How the results depend on the processing

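No paired analysis was possible because the genotypes share no replicate numbers. No member was called lower after adjustment under any of the 13 alternative fits. The count called higher was 0 by edgeR and 1 (Rpl34-ps1) by DESeq2 on the same or on length-scaled counts and by edgeR with RLE factors, filterByExpr or no filter, and 0 without any 1 mouse. At an unadjusted p the 2 lower members became 1 in both DESeq2 fits and with filterByExpr, and 0 to 4 without 1 mouse. The 6 higher members became 1 with filterByExpr, which tested 15266 genes in place of 22170, and 2 to 9 without 1 mouse. The share of all genes called at an unadjusted p is not given for these settings, so nothing is read from these unadjusted counts. The median log2 fold change of 0.12 ranged from -0.06 to 0.38 without 1 mouse, the highest without mouse 7, beside -0.01 for all genes. With library size only it was -0.02 beside a median of all genes of -0.17.

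Members lower without overlap were 1, and 2 with CPM by library size only, with TPM and with no minimum level, and 1 to 2 without 1 mouse. Members higher without overlap were 2, and 1 with library size only, 10 with no minimum level, and 2 to 20 without 1 mouse, with 20 without mouse 7. Of all genes 2.93% were higher with library size only, 6.55% with no minimum level, and 10.3% to 20% without 1 mouse, and 12.2%, 7.80% and 9.81% to 14.5% were lower in the same order, with 9.21% in TPM. The share of members in the reads of members and parents differed by -0.187 percentage points between genotypes, by 0.465 with TPM, by -0.146 for members with at least 10% of 31-base words unique, and by -0.33 to -0.0391 without 1 mouse. Without the Rpl34 family, an alternative chosen after seeing the data, it differed by -0.778 points, from 15.9% ± 0.190 to 15.2% ± 0.309 (SD, n = 3, exact permutation p = 0.1). The summed TPM of members and of parents differed by -437 and -2485, with ranges of -2657 to 3381 and -8244 to 8550 without 1 mouse. In TMM-normalized CPM both differences had the opposite sign, at 183 and 1368. The median difference from the parent, -0.01, was 0.11 and 0.08 on log2 TPM with pseudocounts of 0.1 and 1, and -0.06 to 0.06 without 1 mouse. The cause of these shifts was not tested. Depth limits the 106 members with fewer than 100 reads.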
